A study of Mus musculus with 15 samples.

Results

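The ERK feedback genes described here are Dusp4, Dusp6, Spry1, Spry2, Spry4, Spred1, Spred2, Spred3, Etv4 and Etv5. They were taken by name, as 10 rows of a table of counts per gene with 24451 gene rows, and each of the 10 passed the filter on low counts that left 14600 genes for testing. Their RNA was followed in 15 libraries of mouse ES-R1 embryonic stem cells, a line labelled as derived from the inner cell mass. All cells were grown without serum, with N2 and B27 supplements, and were sampled in 4 days of differentiation.

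Every group carried an siRNA, and each of the 5 groups had 3 libraries. The control siRNA was combined with no addition, with Activin A at 25 ng/ml, or with the inhibitor SB. The siRNA against Vprbp was combined with no addition or with Activin A at 25 ng/ml, and there was no Vprbp siRNA group with SB. The inhibitor is SB431524 in the sample titles but SB431542 in the series text, it is called SB here, and no source used here gives its dose. Nothing states that replicates came from separate cultures. The p-values therefore rest on the spread between these libraries alone, which may be technical.

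FGF ligands act on receptor tyrosine kinases, and the signal passes through Ras and the Raf and MEK kinases to ERK. Active ERK induces genes whose products hold the same pathway down, which makes their RNA a common readout of ERK signalling, although other pathways also act on them. Dusp6 and Dusp4 are phosphatases that remove the activating phosphates of ERK and related kinases. Sprouty proteins (Spry1, Spry2, Spry4) inhibit signalling between the receptor and Raf. Spred proteins (Spred1, Spred2, Spred3) carry a Sprouty-related domain and also restrain Ras and Raf. Etv4 and Etv5 are Ets transcription factors induced by FGF signalling. In mouse embryonic stem cells, Fgf4 and ERK drive the exit from naive pluripotency, whereas Activin and Nodal act through the receptor ALK4 and Smad2 and Smad3. SB blocks the kinase of ALK4 and of its relatives ALK5 and ALK7. Vprbp (Dcaf1) recruits substrates to the ubiquitin ligase CRL4.

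The members lie on separate chromosomes except for a pair on chromosome 11 (coordinates of RefSeq on GRCm38.p6, the build also called mm10). Dusp4 spans chr8:34807610-34819894, and Dusp6 spans chr10:99263231-99267489. Spry1 is at chr3:37639947-37644599 and Spry2 at chr14:105891947-105896819. Spred1 is at chr2:117121071-117182279, Spred2 at chr11:19924442-20024026 and Spred3 at chr7:29157783-29170070. Etv4 is at chr11:101769747-101785310 and Etv5 at chr16:22381313-22439570. Counts cover each gene as a whole, so exons and isoforms were not resolved. In GENCODE M21, Spry1 shares 710 bases, 24.4% of its exons, with Gm42922 on the opposite strand, which has no row of its own in the count table. Spred3 shares 202 bases, 3.25% of its exons, with Ggn on the opposite strand, which had 11 to 32 counts per library. No source used here gives the strand setting of the counting, so reads of these overlaps cannot be assigned to a strand.

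RefSeq promoter windows were matched by symbol for 7 of the 10 members: Dusp6, Spry1, Spry2, Spred1, Spred2, Spred3 and Etv5. The 250 bases upstream of the start used for the window are printed for 3 genes whose RNA behaved differently below. These are Spry1, called with Activin and with SB, Spry2, called with SB, and Spred3, called with the Vprbp siRNA. Each is printed 5′ to 3′ on the gene's own strand, with CG dinucleotides in capitals.
Spry1 (chr3:37639697-37639946, + strand): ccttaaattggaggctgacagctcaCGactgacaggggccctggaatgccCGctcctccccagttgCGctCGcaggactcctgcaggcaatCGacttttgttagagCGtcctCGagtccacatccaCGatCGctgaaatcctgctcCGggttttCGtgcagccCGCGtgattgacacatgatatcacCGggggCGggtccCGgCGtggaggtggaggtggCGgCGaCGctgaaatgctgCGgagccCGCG
Spry2 (chr14:105896820-105897069, − strand): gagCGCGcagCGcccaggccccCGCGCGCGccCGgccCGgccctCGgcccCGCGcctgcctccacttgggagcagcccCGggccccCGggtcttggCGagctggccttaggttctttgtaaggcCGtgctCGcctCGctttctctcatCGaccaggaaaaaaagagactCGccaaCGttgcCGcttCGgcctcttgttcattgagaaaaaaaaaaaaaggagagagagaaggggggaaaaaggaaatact
Spred3 (chr7:29168648-29168897, − strand): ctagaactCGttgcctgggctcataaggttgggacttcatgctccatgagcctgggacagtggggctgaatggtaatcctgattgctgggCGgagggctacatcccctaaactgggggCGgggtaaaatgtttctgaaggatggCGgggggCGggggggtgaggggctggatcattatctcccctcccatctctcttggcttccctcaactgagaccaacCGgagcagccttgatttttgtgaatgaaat
The windows of Spry1 and Spry2 are rich in CG, with 23 such dinucleotides in each printed stretch, against 6 in that of Spred3. The Spred3 stretch lies inside the gene span given above, downstream of its 5′ end at 29170070. The stretches of Spry1 and Spry2 adjoin the 5′ ends of their spans. The CG counts therefore compare an internal start with outer ones, and the 5′ end of Spred3 was not examined. Over the full windows of 300 bases, which include 50 bases after the start, the counts were 29 for Spry1, 28 for Spry2 and 8 for Spred3, with a median of 7 over 32851 windows. The other members with a window had 40 (Spred1), 37 and 19 (the 2 starts of Etv5, the latter inside the gene span), 19 (Dusp6) and 17 (Spred2). Motif letters were looked for on both strands of the full windows: CCGGAAG and CAGGAAG for Ets factors, CAGACA for Smads, TGACGTC for the cAMP response element and TGANTCA for AP-1. One match was found among the members' windows, TGACGTC on the reverse strand of Spred2 starting at position -53, where the first base of the gene is 1. The shares of all windows of this length with each motif were 8.86%, 13.3%, 21.04%, 3.21% and 7.81%, in the order given.

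Libraries held 11.1 to 15.5 M (mega) counts in genes, and levels are given as CPM of these (counts scaled to a fixed library total), scaled by TMM factors of 0.985 to 1.02. The lowest count of any member in any library was 223, for Spred3. The siRNA lowered Vprbp from 170.9 ± 3.6 to 122.1 ± 8.9 CPM without Activin and from 179.0 ± 4.4 to 138.2 ± 9.2 CPM with it (SD, n = 3), so loss of the RNA was partial. The treatments moved their own targets: Lefty2, a Nodal antagonist induced by Smad signalling, was at 42.7 ± 22.7 CPM untreated, 197.4 ± 16.9 with Activin and 1.03 ± 0.29 with SB. Pmepa1, an inhibitor of the same pathway, was at 40.8 ± 2.7, 68.7 ± 3.0 and 12.7 ± 1.2 CPM. Of the pluripotency markers, Pou5f1 and Sox2 were at 700.2 ± 36.1 and 822.7 ± 139.2 CPM in untreated control cells. On principal component 1, replicate 3 of the control siRNA and replicate 3 of the Vprbp siRNA lay nearest to the SB libraries among untreated ones. Component 2 set replicate 1 of the Vprbp siRNA group with Activin apart from the rest. Results that change without these 3 libraries are given with and without them.

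Untreated control cells expressed all members. Per kilobase of merged exons, Spry2 had the highest level of the 10 in these cells, at 116.9 ± 17.3 CPM per kb, followed by Etv5 at 82.9 ± 15.3 (SD, n = 3). Dusp6 (45.1 ± 4.9), Dusp4 (42.8 ± 6.2), Spry4 (40.8 ± 5.6) and Etv4 (38.3 ± 1.6 CPM per kb) lay within 1 SD of a neighbour in this order. Spred2 (30.0 ± 1.6), Spry1 (22.9 ± 2.5) and Spred1 (22.4 ± 3.2 CPM per kb) were lower, and Spred3 was the lowest at 3.39 ± 0.27. Members varied together among the untreated control libraries. In replicate 3, the one nearest to SB, 1 of the 10 members lay above its group mean and the average deviation of the 10 was -0.17 on the log2 scale. In replicate 1, 8 of 10 lay above the group mean, and the average deviation was 0.11. Deviations from a group mean cancel out over its 3 libraries, so the values of replicate 1 partly follow from those of replicate 3. The mean deviation over all genes was -0.002 in replicate 3 and 0.002 in replicate 1. The share of all genes above their group mean in each library was not computed.

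**Figure D1:**
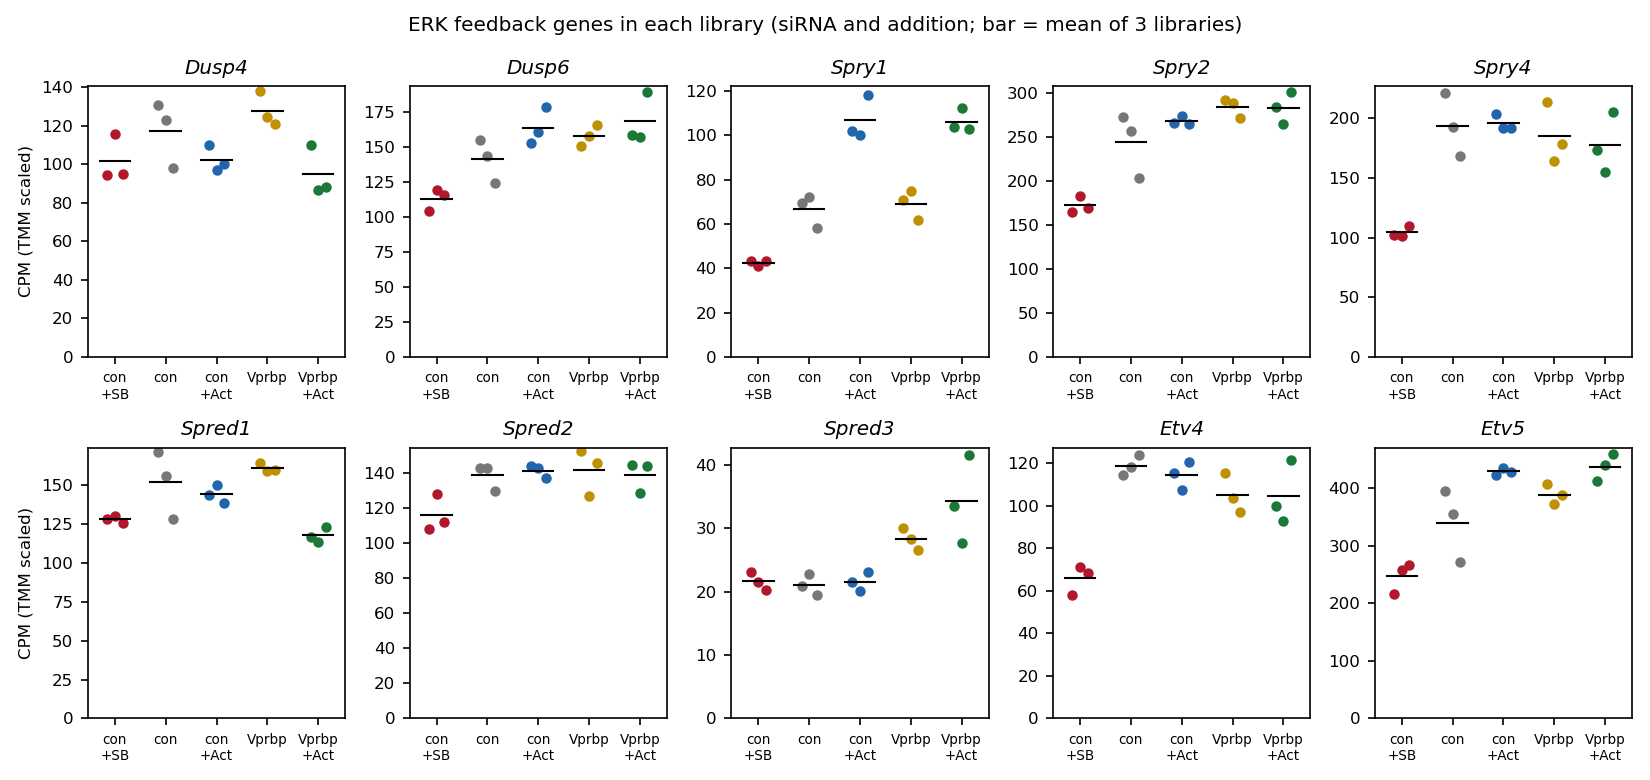
Level of each ERK feedback gene (CPM, TMM scaled, linear axes from 0) in every library, by siRNA (con, control; Vprbp) and addition (SB; Act, Activin), with a bar at the mean of 3 libraries. Spry4 and Etv4 are lowest in the SB libraries, Spry1 is highest in both Activin groups, and Spred3 is highest in both Vprbp siRNA groups.

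SB lowered most of the ERK feedback genes. With the control siRNA, 8 of the 10 members fell and none rose against untreated cells: Spry1, Spry2, Spry4, Etv4, Etv5, Dusp6, Spred1 and Spred2. Over all genes tested, 11.3% were called lower and 11.2% higher (22.6% in either direction) at an adjusted p under 0.05 (quasi-likelihood test of edgeR, Benjamini-Hochberg adjustment), the rule for every call below. The median log2 change was -0.39 over the members and -0.005 over all genes. Of the 10 members, 7 had all SB libraries below all untreated ones, as did 18.4% of all genes (37.2% did not overlap in either direction). In bulk RNA, a smaller share of cells with a transcript and less of it per cell cannot be told apart.

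All 3 Sprouty genes fell with SB. Spry4 (chr18:38586247-38601347, − strand) was at 221.0, 192.3 and 168.3 CPM in the untreated libraries and at 102.1, 101.0 and 109.9 CPM with SB. The ranges lay far apart, and each SB library was well under the lowest untreated one. The change was -0.89 ± 0.11 (log2 fold change ± SE; edgeR adjusted p = 2.8e-05), from a mean of 193.9 to 104.4 CPM. Spry1 was at 69.3, 72.4 and 58.3 CPM untreated and at 43.4, 40.9 and 43.4 CPM with SB. Again no library overlapped, and the SB libraries lay close together. The log2 change was -0.65 ± 0.09 (edgeR adjusted p = 2.8e-05). Spry2, the Sprouty with the highest level per kb, was at 272.4, 256.0 and 203.4 CPM untreated and at 164.5, 182.2 and 169.6 CPM with SB. Its lowest untreated value, in replicate 3, was still above all SB libraries. It fell by 0.50 ± 0.08 on the log2 scale (edgeR adjusted p = 0.00014).

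Both Ets factors fell as well. Etv4 was at 114.2, 118.2 and 124.0 CPM untreated and at 58.0, 71.2 and 68.2 CPM with SB. The untreated libraries were tight, and replicate 3 was here the highest of them, not the lowest. The log2 change was -0.85 ± 0.10 (edgeR adjusted p = 2.1e-06). Etv5 was at 394.3, 354.3 and 271.4 CPM untreated and at 215.7, 257.4 and 266.7 CPM with SB. The groups were separated by a few CPM only, between untreated replicate 3 and SB replicate 3. The log2 change was -0.46 ± 0.10 (edgeR adjusted p = 0.0036), but the call was lost when only the libraries compared were fitted (adjusted p = 0.057).

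Changes of the phosphatases and Spred genes with SB were small. Dusp6 was at 155.5, 143.8 and 124.8 CPM untreated and at 104.2, 119.2 and 115.8 CPM with SB, which did not overlap. Its change of -0.32 ± 0.09 (edgeR adjusted p = 0.011) was lost in 2 of the 6 fits that left out 1 library, those without untreated replicate 1 (-0.25, adjusted p = 0.071) or SB replicate 1 (-0.27, adjusted p = 0.066). Spred2 fell by 0.26 ± 0.08 on the log2 scale (edgeR adjusted p = 0.021), with untreated libraries at 142.7, 142.9 and 129.8 CPM and SB libraries at 108.2, 127.9 and 112.1. This call was lost in 4 of those 6 fits, without untreated replicate 1 or 2 or SB replicate 1 or 3, with adjusted p of 0.072 to 0.11. Spred1, whose human counterpart is mutated in Legius syndrome, was at 171.6, 156.3 and 128.3 CPM untreated and 128.6, 130.3 and 125.7 with SB. Untreated replicate 3 lay among the SB libraries, and the change of -0.25 ± 0.08 (edgeR adjusted p = 0.025) was lost in 5 of 6 such fits (-0.15 to -0.25, adjusted p of 0.058 to 0.19), all but that without untreated replicate 3, and when only the libraries compared were fitted (adjusted p = 0.072). Dusp4 (-0.21 ± 0.11) and Spred3 (0.04 ± 0.12) were not called, with adjusted p of 0.22 and 0.87 by edgeR. Leaving out the 3 libraries that lay apart, or untreated replicate 3 alone, Dusp4 was called (-0.32 in both, adjusted p of 0.0027 and 0.032). Depending on which library was left out, between 5 and 9 members were called lower: 5 without untreated replicate 1 or without SB replicate 1, and 9 without untreated replicate 3.

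Marker genes of cell types moved with SB too. Summed over 6 pluripotency and epiblast markers, SB libraries had 1996 to 2262 CPM and untreated control libraries 2959 to 3444 CPM. Of these 6 markers, 4 were called lower and 0 higher. Summed over 8 trophoblast markers, the ranges were 279.5 to 323.9 CPM with SB and 190.5 to 219.2 CPM untreated, and 3 of the 7 tested were called higher. Of their defining genes, Elf5 was at 0 in every untreated library and at 0.17 ± 0.18 CPM with SB, and Cdx2 was at 1.11 ± 0.38 and 0.75 ± 0.26 CPM. Mean levels were higher with SB for Hand1 (2.94 to 12.0 CPM), Gata3 (1.19 to 4.37), Krt8 (18.5 to 42.6) and Krt18 (49.8 to 105.5). Eomes was lower (11.0 to 7.31 CPM), and Tfap2c was at 124.3 CPM untreated and 124.1 CPM with SB. Of 6 neural markers 3 were called higher and 1 lower, with Hesx1, a forebrain regulator, at 22.1 ± 1.7 CPM with SB against 1.69 ± 0.36 untreated and Sox1 at 29.1 ± 4.5 against 53.4 ± 2.8, while the sums overlapped (179.2 to 201.9 and 172.0 to 198.1 CPM). Fibroblast marker sums were 41.4 to 46.7 CPM with SB and 57.3 to 76.4 CPM untreated, with 2 of the 6 tested called lower. Of 6 extraembryonic endoderm markers tested, 1 was called higher, and of 6 primitive streak markers none was called by edgeR (1 below an unadjusted p of 0.05, 0 higher and 1 lower in DESeq2). The part of these shifts in the members' changes was not tested.

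**Figure D2:**
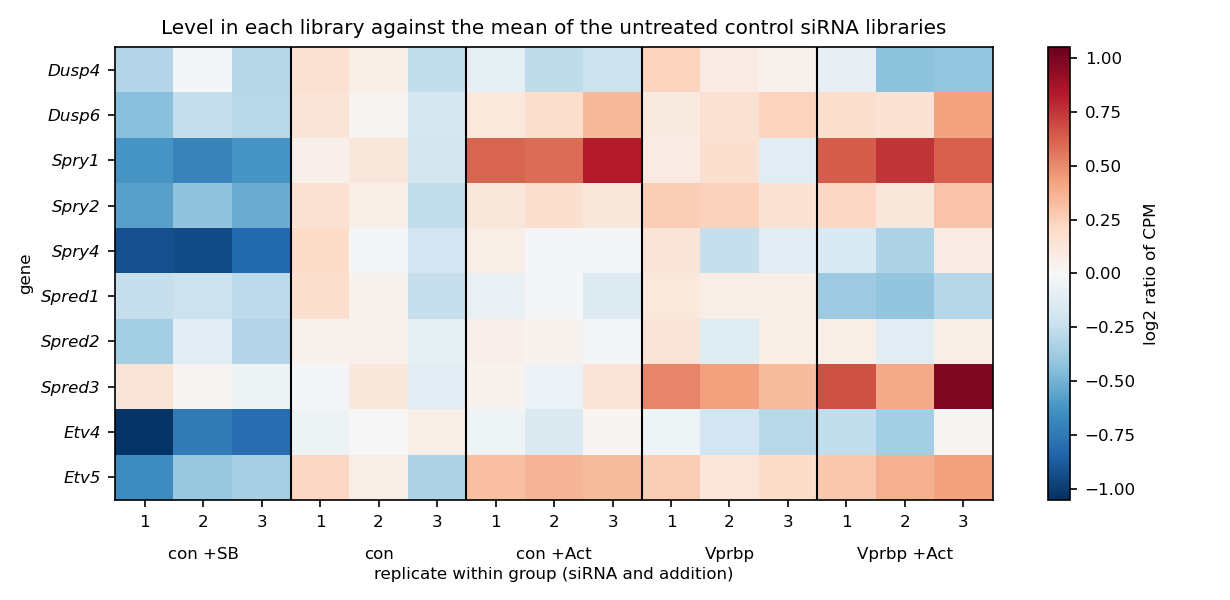
Log2 ratio of each member's CPM in each library to the mean of the untreated control siRNA libraries (colour scale), with libraries grouped by siRNA (con, control; Vprbp) and addition (SB; Act, Activin). The SB columns are blue for Spry1, Spry2, Spry4, Etv4 and Etv5, and the Vprbp siRNA columns are red for Spred3.

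Activin raised 1 of the ERK feedback genes. With the control siRNA, Spry1 rose and no other member was called, against 2.95% of all genes called higher and 1.88% called lower (4.83% in either direction). The median log2 change was 0.03 over the members and -0.005 over all genes. Spry1 was at 101.8, 100.1 and 118.4 CPM with Activin, and the untreated libraries given above ended at 72.4 CPM. Every Activin library was therefore higher than every untreated one. The log2 change was 0.68 ± 0.09 (edgeR adjusted p = 0.00016), from 66.7 ± 7.4 to 106.8 ± 10.1 CPM (SD, n = 3), and it kept its call in all 14 alternative fits. Cell type markers moved in the same libraries. Of 6 neural markers 3 were called lower and 1 higher, with sums of 142.5 to 147.3 CPM with Activin and 172.0 to 198.1 CPM untreated. Primitive streak sums were 35.7 to 50.5 CPM against 13.6 to 19.9 CPM, with 1 of the 6 markers called, Fgf8, which rose and is also an FGF ligand. Their part in the change of Spry1 was not tested.

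Etv5 also had no overlap between groups, which held for 2 of the 10 members upward and for 14% of all genes (27.6% in either direction). It was at 422.5, 435.3 and 428.8 CPM with Activin, all above the untreated maximum of 394.3 CPM. The log2 change of 0.33 ± 0.10 missed the threshold by edgeR (adjusted p = 0.074), passed it in DESeq2 (adjusted p = 0.031) and passed it by edgeR without untreated replicate 1 (0.45, adjusted p = 0.014). Without untreated replicate 3 the change was 0.194 (edgeR adjusted p = 0.26), and without the 3 libraries that lay apart it was also 0.194 (adjusted p = 0.13). Dusp6 was at 153.1, 160.8 and 178.6 CPM with Activin, which overlapped the untreated range (0.22 ± 0.09, edgeR adjusted p = 0.16). For members that were not called, the intervals give the changes that the data allow. For Spry4 the log2 change was 0.01, with a 95% interval of -0.22 to 0.25, and for Etv4 it was -0.05, with an interval of -0.25 to 0.14. For Dusp4 the change was -0.19 ± 0.11, and it was called lower when the 3 libraries that lay apart were left out (-0.31, adjusted p = 0.017). The untreated libraries serve both this comparison and that with SB, so the 2 sets of changes are not independent.

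Activin against SB shares no untreated library and sets stimulated against inhibited receptor. In it, 7 of the 10 members were higher with Activin and none lower, while 19% of all genes were called higher and 19% lower (38% in either direction). The median log2 difference was 0.59 over the members and -0.002 over all genes. Spry1 differed by 1.33 ± 0.09 (edgeR adjusted p = 7.6e-10), from 42.6 ± 1.4 CPM with SB to 106.8 ± 10.1 with Activin. Spry4 (0.91 ± 0.11), Etv4 (0.80 ± 0.10), Etv5 (0.80 ± 0.10), Spry2 (0.64 ± 0.08), Dusp6 (0.54 ± 0.09) and Spred2 (0.28 ± 0.08) followed. These 7 kept their calls in all 14 alternatives for this comparison. Ranges did not overlap for 8 of the 10, all with Activin above, against 27.2% of all genes with Activin above and 54.9% in either direction. The eighth was Spred1, which was not called (0.17 ± 0.08, edgeR adjusted p = 0.090), and it was called when the 3 libraries that lay apart were left out (adjusted p = 0.017) or only the libraries compared were fitted (adjusted p = 0.0094). Dusp4 differed by 0.01, with a 95% interval of -0.23 to 0.25, and Spred3 by 0.00, with an interval of -0.255 to 0.258.

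Seen over all groups, the order of levels differed between members. Spry1 formed 3 levels: both Activin groups overlapped at the top, both untreated groups overlapped in the middle, and SB lay below without overlap. Spry2, Spry4, Etv4 and Dusp6 had SB at the bottom without overlap, and the other 4 groups overlapped with their neighbours in the order. Spred2 had its lowest mean with SB, but the highest SB library (127.9 CPM) was above the lowest untreated Vprbp siRNA library (126.5 CPM). The share of all genes with such orders was not computed. Etv5 had both Activin groups on top, then both untreated groups, then SB, again with overlap inside each of the pairs and none between them. Spred1 was lowest with the Vprbp siRNA and Activin, without overlap with any other group. Its mean was next lowest with SB, where the range (125.7 to 130.3 CPM) overlapped that of the untreated control siRNA (128.3 to 171.6 CPM). Spred3 had the Vprbp siRNA groups above the 3 control siRNA groups. In Dusp4 each group overlapped with the next.

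**Figure D3:**
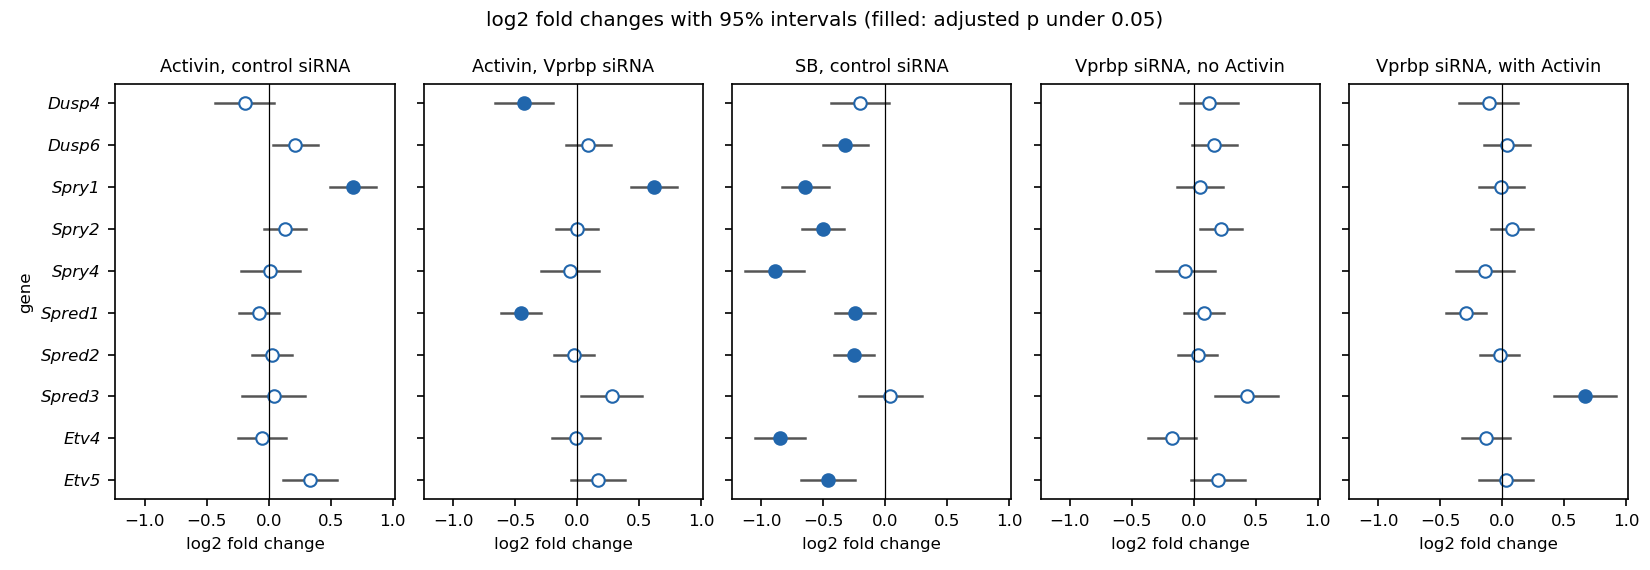
Log2 fold change of each member in 5 comparisons (points) with 95% intervals (lines), filled where the edgeR adjusted p was under 0.05. Filled points lie left of 0 for 8 members with SB and for Spred1 and Dusp4 with Activin under the Vprbp siRNA, right of 0 for Spry1 with Activin under either siRNA, and right of 0 for Spred3 with the Vprbp siRNA under Activin.

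Few genes were called with the Vprbp siRNA at either Activin level taken alone, and Spred3 was the member that passed. Spred3, the Spred family member that lacks a functional KIT-binding domain, was at 20.8, 22.8 and 19.5 CPM with the control siRNA and at 30.0, 28.4 and 26.5 CPM with the Vprbp siRNA, both untreated. With Activin it was at 21.6, 20.1 and 23.1 CPM with the control siRNA and at 33.5, 27.7 and 41.7 CPM with the Vprbp siRNA. All 6 Vprbp siRNA libraries were above all 9 control siRNA libraries, SB included, where Spred3 was at 23.1, 21.5 and 20.3 CPM. The share of all genes with this separation was not computed.

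Without Activin, 0 of the 10 members were called with the Vprbp siRNA by edgeR and 0 by DESeq2, with 2 higher and 0 lower at an unadjusted p under 0.05. Over all genes 0.0411% were called, which is 6 genes, and 1191 of the 14600 tested were below an unadjusted p of 0.05. The change of Spred3 was 0.43 ± 0.12 (edgeR adjusted p = 0.38). With the replicate number as a block, 18 genes were called and Spred3 again was not (0.42 ± 0.12, adjusted p = 0.25). The group ranges did not overlap for Spred3 alone of the 10 members, against 6.64% of all genes with the Vprbp siRNA above and 12.3% in either direction.

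With Activin, 1 of the 10 members was called higher and 0 lower, against 0.0342% and 0.00685% of all genes (0.0411% in either direction). Spred3 rose by 0.66 ± 0.12 (edgeR adjusted p = 0.047), from 21.6 ± 1.5 to 34.3 ± 7.0 CPM (SD, n = 3). The call was lost in 5 of 6 fits that left out 1 library (adjusted p of 0.068 to 0.34), all but that without Vprbp siRNA with Activin replicate 2, and when only the libraries compared were fitted (adjusted p = 0.058). Vprbp siRNA with Activin replicate 3 had both the highest Spred3 and the highest share of fragments tallied as matching no annotated feature. That share was 16.02%, against 10.3% to 13.6% elsewhere. Without this library the log2 change was 0.51. Spred1 had lower values in the same Vprbp siRNA libraries. It was at 116.8, 113.8 and 123.2 CPM with the Vprbp siRNA and at 144.1, 150.1 and 138.6 CPM with the control siRNA, both with Activin. Spred3 above and Spred1 below were the members whose ranges did not overlap, against 8.37% of all genes above and 9.04% below (17.4% either way). The log2 change of Spred1, -0.29 ± 0.08, was not called (edgeR adjusted p = 0.19), but was called when the 3 libraries that lay apart were left out (-0.28, adjusted p = 0.025).

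Averaged over both Activin levels, a comparison added after the data were seen, the Vprbp siRNA raised Spred3 by 0.54 ± 0.09 (edgeR adjusted p = 0.0086). By this average 0.664% of all genes were called higher and 0.274% lower (0.938% in either direction). The call held in each of 20 alternatives, with changes of 0.47 to 0.61 and adjusted p of 1.2e-05 to 0.036. No other member was called in it. Among the cell type markers edgeR called the epiblast gene Dnmt3b higher in the same average, and DESeq2 also called the neural markers Nes and Sox1 and the primitive streak marker T higher. Their part in the change of Spred3 was not tested. The series has 1 siRNA against Vprbp, so other effects of that siRNA and loss of Vprbp cannot be told apart.

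Activin in Vprbp siRNA cells moved 3 members. Spry1 rose, and Spred1 and Dusp4 fell, against 3.65% of all genes called higher and 2.47% lower (6.12% in either direction). Spry1 was at 70.8, 74.7 and 61.7 CPM without Activin and at 103.6, 112.2 and 102.9 CPM with it. The change of 0.62 ± 0.09 (edgeR adjusted p = 0.00022) was kept in all 14 alternatives. Ranges did not overlap for 2 members above, Spry1 and Etv5, and 2 below, Spred1 and Dusp4, against 11.2% of all genes above and 10.2% below (21.4% either way). Spred1 was at 164.4, 159.3 and 159.7 CPM without Activin, against the 113.8 to 123.2 CPM with it given above. It fell by 0.45 ± 0.08 on the log2 scale (edgeR adjusted p = 0.0013), a call also kept in all 14. Dusp4 was at 138.1, 124.3 and 121.1 CPM without Activin and at 110.2, 86.8 and 88.3 CPM with it. Its change of -0.43 ± 0.11 (edgeR adjusted p = 0.031) was lost in 4 of 6 fits that left out 1 library (-0.36 to -0.46, adjusted p of 0.076 to 0.15), those without replicate 1 or 3 of the Vprbp siRNA or replicate 2 or 3 of the Vprbp siRNA with Activin. Spred3 was at 0.28 ± 0.12 in this comparison and was not called (edgeR adjusted p = 0.18), but was called without replicate 2 of the latter group (0.42, adjusted p = 0.045), while without its replicate 3 the change was 0.12 (adjusted p = 0.55).

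The difference of the Activin responses between the siRNAs was tested directly. None of the 10 members was called by edgeR or by DESeq2, as with 0 of 14600 genes, and 517 genes were below an unadjusted p of 0.05. For Spred1 the Activin response was lower with the Vprbp siRNA by 0.37 ± 0.11, the only member with an unadjusted p under 0.05 (edgeR adjusted p = 0.9992). For Spry1 the difference was -0.06, with a 95% interval of -0.32 to 0.20. The falls of Spred1 and Dusp4 with Activin were called with the Vprbp siRNA and not with the control siRNA, but were not shown to differ between the siRNAs. Activin with the Vprbp siRNA was called to raise 3 of 6 primitive streak markers, and of 6 neural markers 3 were called lower and 1 higher. Among the Vprbp siRNA with Activin libraries, replicate 1 had higher sums of several marker lists than the other two: 199.1 CPM against 47.3 and 50.3 for primitive streak, 100.2 against 36.6 and 37.7 for extraembryonic endoderm, and 416.8 against 201.2 and 241.7 for trophoblast, which shares Eomes with the primitive streak list. Spred1 there was between its replicates. The part of these markers in the members' changes was not tested.

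Other inhibitors of the pathway did not move as one list with SB. Of 14 further paralogs and feedback inhibitors, 4 rose and 2 fell, with a median log2 change of 0.20 against -0.005 over all genes. Il17rd, the membrane inhibitor of FGF signalling also called Sef, fell from 297.2 ± 74.7 to 143.0 ± 4.7 CPM (-1.06 ± 0.16). Etv1, the paralog of Etv4 and Etv5, fell from 19.6 ± 5.9 to 10.8 ± 0.7 CPM (-0.87 ± 0.19). Errfi1, an inhibitor of EGF receptors, rose from 46.1 ± 5.0 to 63.3 ± 1.5 CPM (0.46 ± 0.08). The other risers, named after their values were seen, were the phosphatase genes Dusp7 (0.36 ± 0.09) and Dusp5 (0.50 ± 0.17) and the membrane protein gene Flrt3 (1.06 ± 0.35). With Activin and the control siRNA, 1 of these 14 rose, Il17rd, to 467.9 ± 12.8 CPM (0.65 ± 0.16), and 0 fell.

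Early response genes and the kinase cascade itself changed little in number. Of 12 tested early response genes of 13 listed, 2 fell with SB and 0 rose, with a median of -0.09. Myc, a growth regulator that answers to several pathways, fell from 38.8 ± 7.5 to 13.5 ± 1.1 CPM (-1.52 ± 0.15), and Ier2 fell by 0.25 ± 0.07 on the log2 scale. With Activin 2 of the 12 rose, Myc (0.77 ± 0.13, to 66.1 ± 3.3 CPM) and the transcription factor gene Srf (0.24 ± 0.07). Of 23 genes from receptor adaptors to ERK and its RSK kinases, SB raised the RSK gene Rps6ka3 (0.29 ± 0.07) and lowered the adaptor gene Shc1 (-0.24 ± 0.07), with a median of 0.06.

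FGF ligands and receptors moved with the members under SB. Of 12 tested genes of 13 listed, 7 fell and 1 rose, with a median of -1.02. Fgfr1, an FGF receptor of embryonic stem cells, fell from 256.7 ± 2.9 to 106.0 ± 2.9 CPM (-1.28 ± 0.07). Fgf4 fell from 103.7 ± 8.2 to 51.8 ± 7.6 CPM (-0.999 ± 0.094), and Fgf17 from 21.2 ± 1.8 to 5.32 ± 0.50 CPM (-1.99 ± 0.12). Fgfr2 was the gene that rose, from 35.3 ± 6.2 to 81.0 ± 6.4 CPM (1.196 ± 0.125), and it was named after its value was seen. With Activin, 3 of the 12 rose and 1 fell, among them Fgf15 (1.74 ± 0.22), Fgf8 (1.86 ± 0.47) and, lower, Fgfr2 (-0.48 ± 0.13). With the Vprbp siRNA none of these 4 lists had a gene called by edgeR or DESeq2 at either Activin level taken alone. Between 0 and 3 genes of each list were below an unadjusted p of 0.05. Of all 14600 genes, 1191 were below it without Activin and 1532 with Activin. With Activin, the Vprbp siRNA changes of the early response genes were above 0 in 12 of 12 tested. Their median was 0.17, against 0.0017 over all genes. Without Activin 6 of the 12 were above 0, with a median of -0.0045. In the other lists 8 of 14 inhibitors, 11 of 23 cascade genes and 8 of 12 FGF genes were above 0 with Activin. Averaged over both levels, edgeR again called none, with 2 to 4 genes of each list and 2138 of all 14600 genes below an unadjusted p of 0.05. DESeq2 called the phosphatase gene Dusp9 lower (-0.33, adjusted p = 0.00497) and the ligand gene Fgf15 higher (0.66, adjusted p = 0.017), both named after their values were seen.

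**Figure D4:**
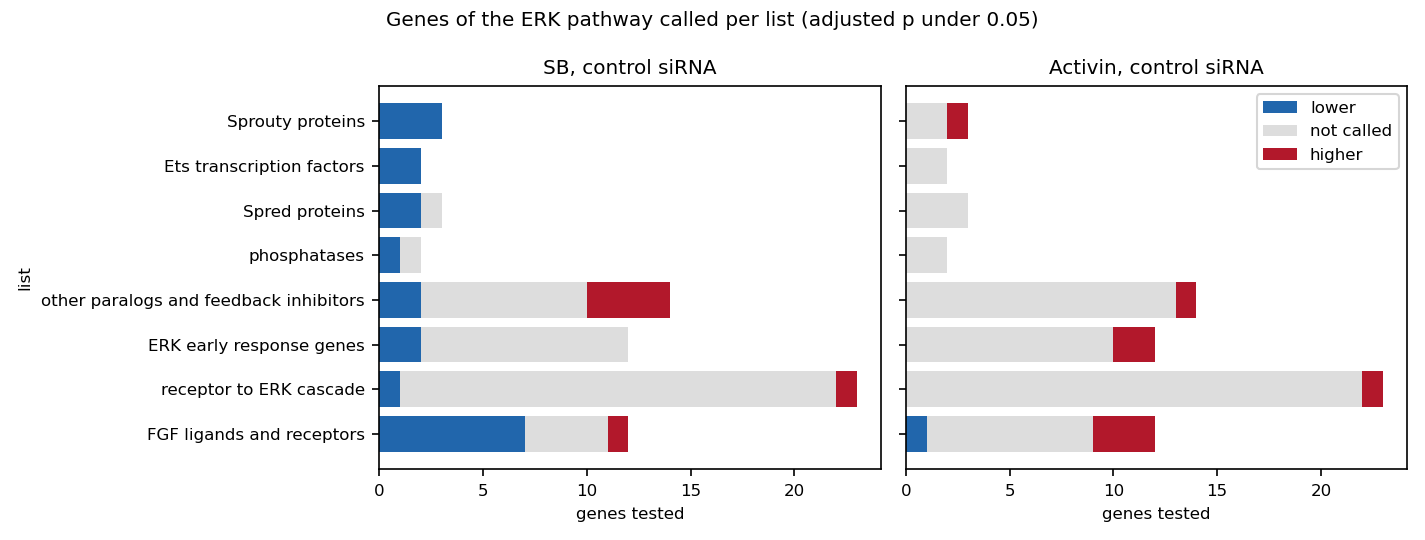
Number of genes tested in each list (bar length) that were called higher, called lower or not called by edgeR (adjusted p under 0.05), for SB and for Activin with the control siRNA. With SB the Sprouty and Ets lists are lower throughout, 7 of 12 FGF ligands and receptors are lower, and 21 of 23 cascade genes are not called.

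Among all other genes tested, those with profiles most like the members over the 15 libraries were found by Pearson correlation of log2 CPM, as a description over libraries that share their groups. The mean profile of the 10 members was most like Ceacam1 (r = 0.964), Fam169a (r = 0.963) and L1td1 (r = 0.961). Ceacam1 was at 17.0 ± 3.7 CPM untreated, 8.95 ± 1.15 with SB and 16.9 ± 2.4 with Activin. Fam3c (r = 0.989) and Pold3 (r = 0.986) were among the genes most like Spry1. Spry4 was most like Dlc1 (r = 0.959), Etv5 was most like Zbed5 (r = 0.983) and Dusp6 was most like Enc1 (r = 0.965). The closest profile to Spred3 was that of Lrif1 (r = 0.854), at 19.9 ± 4.5 CPM with the control siRNA untreated and 30.4 ± 4.2 with the Vprbp siRNA and Activin. Between members, Dusp6 and Etv5 correlated at 0.950 over the 15 libraries and Spry2 and Etv5 at 0.943, whereas Dusp4 and Dusp6 correlated at 0.085. After group means were subtracted, Spry2 and Spred1 correlated at 0.926, the highest of the member pairs. Over the uncorrected libraries they did so at 0.371. Both varied most among the untreated control libraries, with an SD of 14.8% (Spry2) and 14.4% (Spred1) of the mean. In the other groups it was 1.76% to 6.46%.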

How the data were processed

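RNA sequencing counts per gene were analysed for 15 libraries, in groups and replicate numbers taken from the sample titles. The table deposited by the authors holds raw counts, made with HTSeq 0.6.1p1 on mouse build mm10 per the submitters' processing notes. For the aligner, annotation and strand setting the sources used here give nothing. Beside 24451 genes it has 5 tally rows, 39.6% to 44.4% of each library's total, which entered neither library sizes nor tests.

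Genes passing filterByExpr (minimum count 10) were fitted with edgeR 4.0.16 in R 4.3.3 (TMM, robust glmQLFit, glmQLFTest), with all 15 libraries and 1 mean per group, and p-values were adjusted by Benjamini-Hochberg over 14600 genes, with a threshold of 0.05. The biological coefficient of variation was 8.76%. A standard error is the log2 fold change over the square root of the test's F. Likeness used log2 CPM with a prior count of 2. Depth limits precision, and 3 counts, the limit at a count of 0, were 0.193 to 0.269 CPM. The code was tested on simulated data. Replicates never agreed within sampling noise (chi-square over its degrees of freedom from 2.82 to 16.7).

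The members, lists, comparisons and markers were chosen with earlier results of these data known. All members, Vprbp, Lefty2 and Pmepa1 were named, with up to 3 genes of smallest p per further list and the 3 most alike per profile. Some genes this rule selects are not reported here. The comparison averaged over Activin was added after seeing the data. Alternatives were RLE factors, library totals, a replicate block, no filter, a filter of 1 CPM or more in 3 libraries or more, DESeq2 1.42.0, only the libraries compared, leaving out the 3 libraries that lay apart, and leaving out each library.

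Replicate numbers were checked as a pairing from the data: libraries with the same number deviated from their group means with correlations of 0.123, 0.196 and 0.369 between the untreated control and Vprbp siRNA groups, and in every other pair of groups at least 1 of the 3 was not over 0.1. The blocked value is therefore given for that comparison. Promoter windows are those of RefSeq on GRCm38.p6, and exon lengths those of GENCODE M21.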

Additional observations from a re-analysis of the deposited data

How the results depend on the processing

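Of 1240 values of single members under alternatives, 23 lost their call, 9 gained one and 5 changed sign. A sign was compared unless both values were under their standard error and neither was called, which set aside 80. Without the 3 libraries that lay apart, the Vprbp siRNA effect without Activin on Spred1 turned to -0.018, the difference of Activin responses to 0.0356 for Dusp6 and 0.0165 for Etv5, and the averaged Vprbp siRNA effect on Dusp4 to -0.0863. Without control siRNA replicate 3, the Spred1 value was -0.0254, within a range of -0.0254 to 0.1759 over fits without 1 library. None of these was called.

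With Activin and the control siRNA, 2 members were higher in DESeq2, 1 to 2 when 1 library was left out, and 1 was lower without the 3 libraries apart. With SB, 5 to 9 were lower when 1 library was left out. For the Vprbp siRNA with Activin, 0 were higher with only the libraries compared, 0 to 1 when 1 was left out, and 1 was lower without the 3 libraries apart. With Activin and the Vprbp siRNA, 1 to 2 were higher and 1 to 2 lower when 1 was left out. The cause was not tested.

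Counts over all genes moved more. With the replicate block, 1058 genes against 705 were called for Activin with the control siRNA, 18 against 6 for the Vprbp siRNA without Activin, 51 against 6 with Activin, and 273 against 137 averaged. The block changed no call of a member in the paired comparison of untreated groups. For the Vprbp siRNA without Activin, 10 were called without a filter, 31 in DESeq2, 1 with only the libraries compared and 76 without the 3 libraries apart. With Activin these were 15, 76, 68 and 205. Averaged, DESeq2 called 343, the libraries compared 76 and the fit without the 3 libraries 475. For Activin with the Vprbp siRNA, 373 against 894 were called with only the libraries compared, and for the difference of responses 1 against 0 without the 3. When 1 library was left out, counts ran from 265 to 721 for Activin with the control siRNA, 351 to 1167 with the Vprbp siRNA, 2 to 37 and 0 to 21 for the Vprbp siRNA without and with Activin, and 24 to 395 averaged. At 223 to 601 counts, Spred3 is the member most limited by depth.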
